A study of Homo sapiens with 24 samples.

Results

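The 6 libraries described here were the day 0 libraries of HSJD-DIPG-007, the starting point of a time course of PRMT5 inhibition. They were chosen by their labels, as the columns of the deposited count table that the labels place at day 0, and they were 6 of 24 libraries in all. HSJD-DIPG-007 is an established patient-derived line of diffuse midline glioma (DMG), with the labelled genotype H3F3A K27M, ACVR1 R206H and PIK3CA MIS. The cells were grown as spheroids, and the day after seeding received vehicle or the PRMT5 inhibitor LLY-283 at the concentration that inhibits growth by 40%. Vehicle and LLY-283 each had 3 libraries at day 0, taken before the drug could act, and both arms carry the same 3 alterations. The study calls such repeats technical, so each p-value below measures only the spread between libraries of 1 line. The vehicle day 5 libraries, 3 in number and grown for longer without drug, were used for comparison.

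DMG is a childhood tumour of the midline brain, and most cases carry a lysine-to-methionine change in histone H3 that blocks the methyltransferase EZH2 of Polycomb repressive complex 2 and lowers trimethylation of H3 lysine 27. Its cells are known to resemble oligodendrocyte precursors, which are dividing glial progenitors that depend on PDGF signalling through PDGFRA and carry the transcription factors OLIG1, OLIG2 and SOX10. SOX2, a transcription factor of neural stem cells, is kept on in many gliomas. ACVR1 is a type I receptor of the BMP pathway, and PIK3CA is the catalytic subunit of a kinase downstream of growth factor receptors.

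The day 0 transcriptome held OLIG2, SOX2 and PDGFRA and abundant NES, VIM, PTPRZ1 and CSPG4, with little SOX10 and GFAP. Of 16 astrocyte markers 11 were expressed by the rule below, and SLC1A3, S100B, CLU and SOX9 had higher counts than PDGFRA. Pooled counts do not show which of these genes share a cell. Levels are given as CPM, the counts of a gene per 1000000 counts of its library, as mean ± SD over the 6 libraries. A gene is called expressed at 1 CPM or more in all 6 libraries, and "0 counts" means that no library had a count, which allows up to 0.0257 CPM over the 6 libraries together (3 counts in 116807452). By this rule 14094 of 58676 gene identifiers were expressed. Of the 19831 protein-coding genes 12143 (61.2%) were expressed and 2286 had 0 counts, and 1257 lncRNA genes and 464 pseudogenes were expressed. Totals ran from 17506633 to 20405208 counts per library.

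OLIG2, a basic helix-loop-helix factor of oligodendrocyte progenitors (chromosome 21, 33025935 to 33029196 in GRCh38, GENCODE release 44), had 292 CPM in the lowest library, 295 in the median and 306 in the highest. SOX2, which lies within the long noncoding gene SOX2-OT on chromosome 3 (181711925 to 181714436), had 266, 282 and 297 CPM in the same order. PDGFRA, the receptor for PDGF-AA (chromosome 4, 54229280 to 54298245), had 79.8, 81.7 and 86.4 CPM. All 3 markers were present in every library with a spread of a few percent of the mean, and by CPM they stood at rank 512 (OLIG2), 570 (SOX2) and 3033 (PDGFRA) of all genes. Ranks by CPM do not take transcript length into account. The table pools all cells of a library, so that fewer cells of a type and less RNA per cell cannot be told apart.

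To show what kind of start site lies in front of marker and silent genes, RefSeq promoters of GRCh38.p14 are given 5′ to 3′, from 250 bases before to 50 after the start, with each CG dinucleotide in capitals. PDGFRA (chr4:54229043-54229342, plus strand) and its neighbour and relative KIT (chr4:54657707-54658006, plus strand) are shown because the former was expressed and the latter had 0 counts. SOX2 (chr3:181711675-181711974, plus strand) is shown as a marker of the line. H3-3A (chr1:226061581-226061880, plus strand) and H3-3B (chr17:75779730-75780029, minus strand) are shown because both encode histone H3.3 from separate promoters.
PDGFRA: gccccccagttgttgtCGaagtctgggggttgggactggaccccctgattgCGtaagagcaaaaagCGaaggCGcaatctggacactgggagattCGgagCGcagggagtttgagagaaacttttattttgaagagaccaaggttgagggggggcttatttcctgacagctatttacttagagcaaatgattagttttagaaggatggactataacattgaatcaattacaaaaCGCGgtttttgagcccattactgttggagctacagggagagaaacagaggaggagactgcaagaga
KIT: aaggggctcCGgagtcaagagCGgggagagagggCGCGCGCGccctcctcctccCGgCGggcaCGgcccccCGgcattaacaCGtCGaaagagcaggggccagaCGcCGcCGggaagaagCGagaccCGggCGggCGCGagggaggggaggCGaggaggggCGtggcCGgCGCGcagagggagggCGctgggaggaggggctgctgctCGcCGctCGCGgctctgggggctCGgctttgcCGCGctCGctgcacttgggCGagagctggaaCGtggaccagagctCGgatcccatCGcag
SOX2: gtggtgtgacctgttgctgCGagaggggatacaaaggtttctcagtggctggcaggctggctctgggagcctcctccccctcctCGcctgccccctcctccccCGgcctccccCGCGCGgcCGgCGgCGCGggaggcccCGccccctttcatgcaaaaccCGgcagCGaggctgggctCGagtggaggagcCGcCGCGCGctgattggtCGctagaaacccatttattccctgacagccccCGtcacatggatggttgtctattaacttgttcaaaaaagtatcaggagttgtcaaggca
H3-3A: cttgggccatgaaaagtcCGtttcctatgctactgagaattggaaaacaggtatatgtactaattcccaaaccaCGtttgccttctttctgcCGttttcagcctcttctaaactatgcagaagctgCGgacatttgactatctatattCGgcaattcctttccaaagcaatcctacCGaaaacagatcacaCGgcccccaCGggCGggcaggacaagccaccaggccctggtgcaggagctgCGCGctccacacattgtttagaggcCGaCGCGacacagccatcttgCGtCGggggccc
H3-3B: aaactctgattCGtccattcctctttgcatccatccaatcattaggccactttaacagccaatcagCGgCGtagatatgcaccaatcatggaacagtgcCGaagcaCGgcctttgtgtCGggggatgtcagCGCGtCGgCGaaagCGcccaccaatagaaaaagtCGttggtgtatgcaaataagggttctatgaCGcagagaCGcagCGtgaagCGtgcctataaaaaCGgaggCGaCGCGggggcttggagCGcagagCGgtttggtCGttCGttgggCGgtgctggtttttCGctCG

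The expressed PDGFRA promoter held 8 CG dinucleotides and the silent KIT promoter 38, against a median of 14 over 27305 RefSeq promoters of 300 bases. At least as many as KIT were found in 9.69% of those promoters, and at least as many as PDGFRA in 60.1%. SOX2 had 20, H3-3A 16 and H3-3B 27. The letters TATAAA on either strand were present in the H3-3B promoter and not in the other 4, and 12% of all promoters in the set held them. These counts are a description of the reference sequence, not of its state in these cells.

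Abundance fell steeply with rank. The 10 most abundant genes held 5.26% to 5.70% of the counts of a library, the 100 most abundant 17.4% to 17.9%, and the 1000 most abundant 46.6% to 47.2%. The 1166 genes at the top held 50% of all counts. There were 62 genes at a mean of 1000 CPM or more, 2395 at 100 or more and 10212 at 10 or more, and the median expressed gene had 28.9 CPM. Mitochondrial genome genes took 4.54% to 5.40% of the counts and the 87 cytosolic ribosomal protein genes 4.39% to 4.8%.

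**Figure D1:**
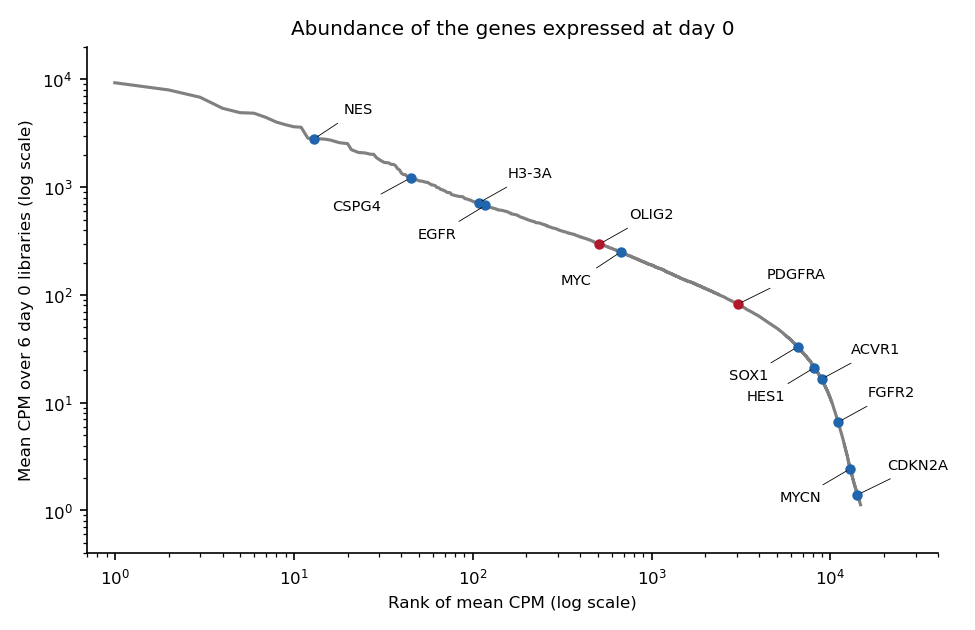
Mean CPM of each gene expressed at day 0 (y, log scale) against its rank by mean CPM (x, log scale), with 13 named genes as points, OLIG2 and PDGFRA in red. NES stood at rank 13, EGFR at rank 118, OLIG2 at rank 512, PDGFRA at rank 3033 and ACVR1 at rank 8923.

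By CPM the 15 leading genes were MT-RNR2 (9320 ± 545 CPM), MT-CO1, EEF1A1, GAPDH, ACTB, MT-ND4, MT-ND2, MT-CO2, MT-CO3, ACTG1, MT-ATP6, HSP90AB1, NES, EEF2 and HSPA8. They included 7 mitochondrial transcripts, translation factors, glycolysis, actins and chaperones, and a single neural gene, the intermediate filament NES at 2810 ± 43.2 CPM. PTPRZ1, a receptor phosphatase of glial progenitors that binds the ligand pleiotrophin, came at rank 16 with 2740 ± 20.6 CPM. Per kilobase of transcript, with the median length of each gene's protein-coding transcripts, the leading 15 were HNRNPA1, MT-RNR2, MT-CO2, MT-ATP6, MT-CO1, MT-CO3, MT-ND2, GAPDH, ENO1, ACTB, MT-ND4, EEF1A1, MT-ATP8, FASN and MT-ND1. The place of HNRNPA1 (8020 CPM per kb) rests on a median annotated length of 259 bases, and that of FASN (3050 CPM per kb) on 363.5 bases. Ratios between genes and orders per kb below therefore use that length and, where the order turns, the longest transcript as well. Levels given in CPM alone are not corrected for length, and their order can differ per kb.

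Of 18 oligodendrocyte precursor markers 13 were expressed, with a median of 18.1 CPM over the list against 9.29 over all protein-coding genes. PTPRZ1 led the list per kb under each of 3 lengths tried (median, longest and union of exons), at 410 ± 3.09 CPM per kb with the median length. CSPG4, the NG2 proteoglycan of precursors, had 1220 ± 22.4 CPM, and the matrix proteoglycans VCAN and BCAN had 418 ± 8.74 and 283 ± 8.05 CPM. Among transcription factors OLIG1 had 153 ± 6.90 CPM, SOX6 53.6 ± 2.18, SOX8 18.7 ± 1.60 and NKX2-2 17.5 ± 1.28.

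The other 5 precursor markers stayed under 1 CPM. SOX10, one of the transcription factors that precursors carry, had 0.0490 CPM in the lowest library, 0.135 in the median and 0.472 in the highest, or 20 counts in all 6. GPR17, a marker of committed precursors, had 0.147 ± 0.0808 CPM, and TNR, PCDH15 and LHFPL3 had means of 0.212, 0.402 and 0.536 CPM. The precursor list was thus divided between a group at 5.80 CPM (CSPG5) or more and a group at 0.536 CPM or less.

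Neural stem cell markers were expressed in 9 of 13 cases, with a list median of 22.0 CPM. The intermediate filaments NES and VIM had 2810 ± 43.2 and 2100 ± 52.1 CPM, and with SOX2 they were the top 3 of the list per kb under each of the 3 lengths. FABP7, a fatty acid binding protein of radial glia, had 111 ± 5.36 CPM, SOX1 33.0 ± 1.46, MSI1 30.9 ± 1.97, PAX6 22.0 ± 1.21, HES1 21.2 ± 1.33 and SOX3 4.86 ± 0.616. HOPX, PROM1 (CD133), HES5 and NR2E1 had means of 0.884, 0.125, 0.0251 and 0.0086 CPM. HES1 and HES5 are both Notch effectors, and of the pair only HES1 was expressed.

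**Figure D2:**
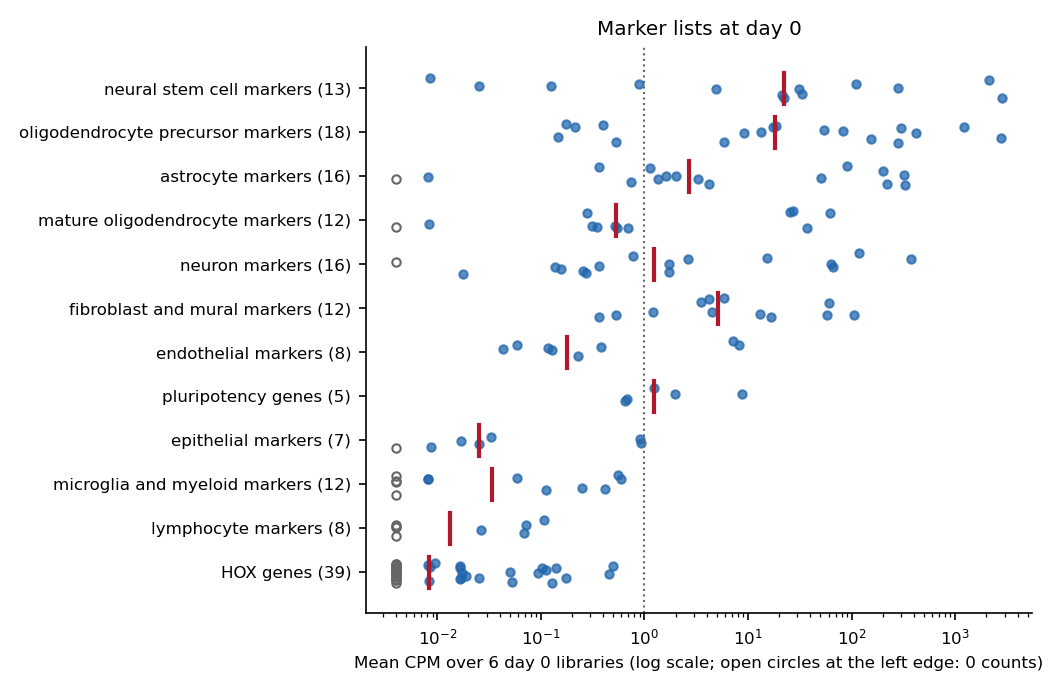
Mean CPM over the 6 day 0 libraries (x, log scale) of each member of 12 marker lists (rows, list size in brackets), with the list median as a red bar, 1 CPM as a dotted line and genes with 0 counts as open circles at the left edge. Neural stem cell and oligodendrocyte precursor lists had medians of 22.0 and 18.1 CPM, while the means of all members of the myeloid, lymphocyte, epithelial and HOX lists lay under 1 CPM.

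Astrocyte markers were expressed in 11 of 16 cases. SLC1A3, a glutamate transporter, had 324 ± 11.3 CPM, S100B 322 ± 10.5, CLU 218 ± 9.95, SOX9 203 ± 5.65, GJA1 90.1 ± 3.16 and AGT 50.7 ± 1.99. GFAP, the filament of mature astrocytes, had 0.639 CPM in the lowest library, 1.24 in the median and 1.49 in the highest. AQP4, the water channel of astrocyte endfeet, had 0 counts, and ALDH1L1, ALDOC and GJB6 had means of 0.734, 0.367 and 0.00817 CPM. The list thus held members above 50 CPM beside members near or under 1 CPM. OLIG2 had 131 ± 52.3 times the CPM per kb of GFAP, 497 ± 198 times with the longest transcripts and 1010 ± 404 times with the union of exons. The first of these ran from 89.9 to 213 between libraries, and the size of the ratio is set by the few counts of GFAP.

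Mature oligodendrocyte markers were expressed in 4 of 12 cases. CNP (61.3 ± 1.89 CPM), UGT8 (37.2 ± 1.11) and MYRF (27.2 ± 2.08) were among those that passed, whereas the myelin genes MBP, MOG, MOBP and MAG had means of 0.315, 0.352, 0.515 and 0.00828 CPM and OPALIN had 0 counts. MYRF is the transcription factor of myelin gene expression and UGT8 makes galactolipids of myelin. Of 16 neuron markers 8 were expressed. MAP2 had 374 ± 6.08 CPM, TUBB3 119 ± 2.80, SYT1 66.8 ± 3.86, GAD1 63.0 ± 4.01 and ELAVL4 15.1 ± 0.893, while DCX, RBFOX3 and STMN2 had 2.66, 1.73 and 1.72 CPM. SNAP25, NEUROD1, SLC17A6 and GAD2 had means of 0.156, 0.137, 0.0177 and 0.275 CPM, and NEFL had 0 counts. GAD1 and GAD2 encode the enzymes that make GABA, and of these GAD1 alone was expressed.

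Markers of cells from outside the neural lineage differed by list. None of 12 myeloid markers was expressed, 4 had 0 counts (AIF1, TYROBP, C1QA, C1QB), and the summed list ran from 1.52 to 2.74 CPM per library. None of 8 lymphocyte markers was expressed, with 4 at 0 counts (CD3D, CD2 and MS4A1 among them) and a sum of 0.147 to 0.465 CPM, and none of 7 epithelial markers. Of 8 endothelial markers PECAM1 (8.19 ± 0.930 CPM) and ESAM (7.19 ± 1.23) were expressed, while CDH5, VWF and TEK had means of 0.0429, 0.118 and 0.0594 CPM. Of 12 fibroblast and mural markers 9 were expressed, among them THY1 (105 ± 2.87 CPM), POSTN (60.4 ± 1.52), ACTA2 (57.6 ± 2.01), LUM (16.8 ± 1.16) and PDGFRB (13.1 ± 0.634). The fibrillar collagen genes COL1A1, COL1A2 and COL3A1 had 5.83 ± 0.775, 1.22 ± 0.732 and 0.367 ± 0.276 CPM, and DCN 0.528 ± 0.145. THY1 is also known as a surface protein of neurons and progenitors. Of 5 pluripotency genes DPPA4 (8.73 ± 0.546 CPM) and POU5F1 (1.95 ± 0.360) were expressed and NANOG had 1.25 ± 0.444. The last pair have near-identical pseudogenes with which reads may be shared, so their values are uncertain.

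Receptor tyrosine kinases transmit growth factor signals and were expressed in 29 of 58 cases, with 1 member (KIT) at 0 counts. EGFR had 650 CPM in the lowest library, 679 in the median and 697 in the highest, and EPHB3, an Eph receptor, had 335, 357 and 366. Per kb EGFR had 236 ± 5.89 CPM and EPHB3 83.8 ± 2.41, but with the longest transcript EGFR had 68.4 and EPHB3 83.8, so that their order depends on the length. EGFR was the highest of the EGF receptor family per kb under each length, followed by ERBB2 at 31.1 ± 1.67 CPM, and ERBB3 and ERBB4 had 0.770 and 0.670 CPM. PDGFRA exceeded PDGFRB per kb by 7.60 ± 0.270 times, by 5.61 ± 0.199 times with the longest transcripts and by 4.69 ± 0.167 times with the union of exons. PDGFRA had 0.513 ± 0.0117 times the CPM per kb of EGFR, and 0.188 ± 0.00428 times with the longest transcripts.

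FGFR1 (117 ± 2.39 CPM) was the highest of the FGF receptors per kb under each length, and FGFR2, FGFR4 and FGFR3 had 6.61, 2.55 and 2.03 CPM. Other receptors detected at high counts were EPHB4 (146 ± 2.09 CPM), PTK7 (134 ± 3.90), TYRO3 (131 ± 5.84), LMTK2 (89.8 ± 1.72), DDR1 (75.9 ± 2.85), RYK (72.5 ± 2.09), EPHA5 (56.0 ± 2.28) and DDR2 (43.4 ± 1.67). INSR and IGF1R had 21 ± 1.21 and 20.8 ± 0.948 CPM. MET, the receptor of hepatocyte growth factor, had 0.986 ± 0.292 CPM. NTRK2, RET, ALK, ROS1 and FLT3, several of which form fusion genes in other tumours, had means of 0.112, 0.0346, 0.0355, 0.0333 and 0.00819 CPM.

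**Figure D3:**
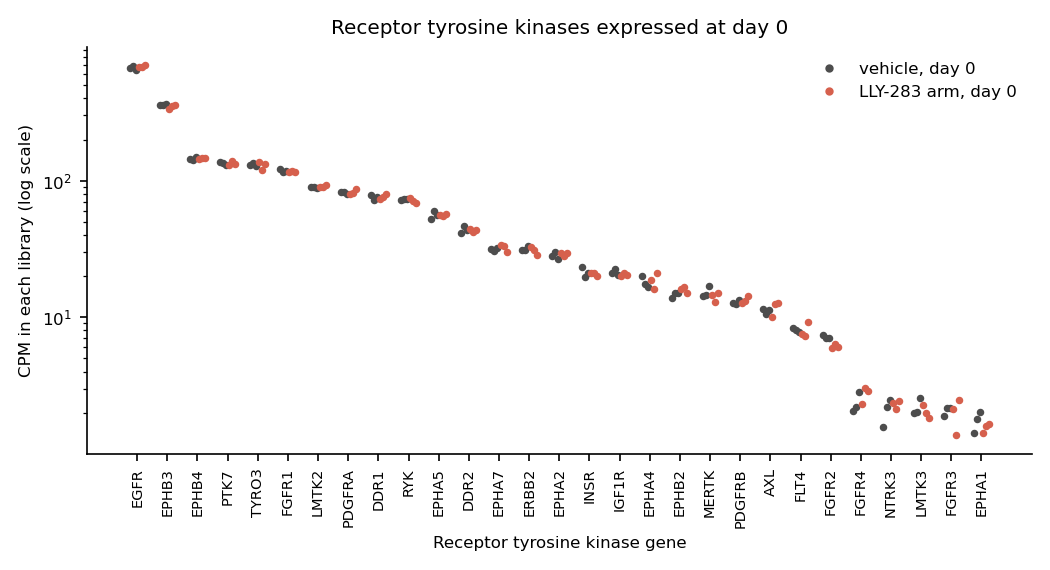
CPM (y, log scale) of the 29 expressed receptor tyrosine kinases (x, ordered by mean CPM) in each day 0 library, vehicle libraries in grey and LLY-283 arm libraries in red. EGFR lay between 650 and 697 CPM and PDGFRA between 79.8 and 86.4 CPM.

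Ligands of these receptors were expressed in 29 of 48 cases. Pleiotrophin (PTN) was the highest of the heparin-binding and other ligands per kb under each length, with 1050 ± 39.1 CPM, and ANGPT1, KITLG, MDK and CSF1 had 106 ± 2.69, 62.6 ± 2.08, 54.7 ± 3.71 and 43 ± 1.46 CPM. The PDGF ligands PDGFB, PDGFA and PDGFC had 89.3 ± 3.5, 85.3 ± 3.85 and 49.6 ± 2.28 CPM beside their receptor PDGFRA. PDGF-AA, PDGF-BB, EGF and basic FGF were also components of the culture medium. KITLG was thus detected without a count of its receptor KIT. HGF had 14.1 ± 0.695 CPM beside MET under 1 CPM. EGF, EREG, HBEGF and NRG2 had 7.06, 7.72, 8.18 and 8.73 CPM, and TGFA had 0 counts. Of 4 neurotrophins none was expressed, and BDNF and NTF3 had 0 counts, as did IGF1. All 8 ephrins, the membrane ligands of Eph receptors, were expressed, EFNB2 at 141 ± 2.44 CPM.

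In the BMP and TGF-beta pathway 27 of 36 genes were expressed. ACVR1, the gene with the R206H change, had 16 CPM in the lowest library, 16.4 in the median and 17.4 in the highest, a tight range at a low level. BMPR1A, another type I receptor, had 188 ± 3.29 CPM. ACVR1 had 0.193 ± 0.00955 times the CPM per kb of BMPR1A (0.128 ± 0.00631 with the longest transcripts and 0.0903 ± 0.00446 with the union of exons). BMPR1B, ACVR1B and TGFBR1 had 36.6 ± 2.01, 22.6 ± 1.12 and 58.5 ± 1.95 CPM, and the endothelial receptor ACVRL1 had 0.129. Of the type II receptors that pair with them BMPR2, ACVR2A, ACVR2B and TGFBR2 had 59.5, 40.2, 29.0 and 6.33 CPM.

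All 6 signalling SMADs were expressed, SMAD5 highest per kb under each length at 159 ± 3.88 CPM, with SMAD1 at 33.0 ± 0.575 and the common partner SMAD4 at 56.3 ± 1.2. Inhibitor of differentiation genes, classic targets of BMP signalling, gave 208 ± 5.93 CPM for ID4, 17.6 ± 1.18 for ID2, 12.5 ± 1.75 for ID3 and 1.60 ± 0.232 for ID1. ID4 was the highest of them per kb under each length. Among ligands BMP7 (71.7 ± 1.77 CPM), TGFB1 (41.1 ± 1.30), TGFB3 (16.4 ± 0.807) and INHBA (12.6 ± 1.40), the activin A subunit, were expressed. BMP2, BMP6 and BMP4 had means of 0.684, 0.0259 and 0.0086 CPM. The BMP antagonist NOG had 1.5 ± 0.228 CPM.

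Glutamate and GABA receptors, through which glioma cells are known to respond to neurons, were expressed in 15 of 38 cases. Of the AMPA subunits GRIA2 (71.5 ± 2.43 CPM) and GRIA4 (48.9 ± 1.29) were detected, and GRIA1 and GRIA3 had 0.0435 and 0.0347 CPM. GRIA2 is the subunit that limits calcium entry. GRIN1, which every NMDA receptor needs, had 0.0177 ± 0.0275 CPM, while GRIN2D and GRIN2C had 4.38 and 2.66 CPM. Kainate subunits GRIK3, GRIK2 and GRIK1 had 78.2 ± 1.44, 25.1 ± 1.51 and 10.2 ± 0.718 CPM, and the metabotropic receptors GRM3 and GRM2 had 64.7 ± 2.21 and 15.6 ± 0.851. Of the GABA-A receptor subunits GABRA5 had 24.7 ± 1.2 CPM and GABRA6 had 0 counts. GABBR1 had 67.4 ± 6.37 CPM and its partner GABBR2 0.0862.

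Both genes of histone H3.3 were abundant, H3-3A at rank 108 and H3-3B at rank 135 by CPM. H3-3A, the gene of the K27M change (H3F3A in the labels), had 678 CPM in the lowest library, 703 in the median and 772 in the highest, and H3-3B had 597, 629 and 647. Per kb H3-3A had 0.673 ± 0.0173 times the level of H3-3B with the median transcript length but 1.70 ± 0.0438 times with the longest, so the order of this pair turns with the length used. Gene counts do not tell the mutant allele from the other, and near-identical H3.3 pseudogenes may share reads. Of other variant histones H2AZ1 had 421 ± 20.9 CPM, MACROH2A1 225 ± 5.42, H2AZ2 199 ± 2.69, H1-10 177 ± 7.18, H2AX 84.5 ± 2.00 and the centromeric CENPA 11.9 ± 1.05. MACROH2A2 had 0.0424 CPM, and H2AJ was listed at 0.

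Replication-dependent histone genes, whose messenger RNA mostly lacks a poly(A) tail, were expressed in 14 of 64 cases (21.9%), and 11 had 0 counts. The libraries were made from poly(A) RNA, and the part of that step in these low values was not tested. H1-2 had 29.1 ± 1.10 CPM, H2BC21 22.8 ± 0.907, H2BC12 19.4 ± 1.68, H2AC6 14.6 ± 1.19, H2AC25 11.4 ± 0.753 and H3C6 9.80 ± 0.653. The whole list summed to 155 to 165 CPM per library, and copies such as H3C14 and H3C15, both at 0.872 ± 0.284 CPM, were near identical and uncertain.

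Of 14 genes of Polycomb repressive complex 2 and the H3K27 demethylases 13 were expressed. EZH2, the methyltransferase that K27M inhibits, had 130 CPM in the lowest library, 137 in the median and 142 in the highest. Its CPM per kb was 17.2 ± 1.75 times that of its homologue EZH1 (18.9 ± 1.92 with the longest transcripts and 11.9 ± 1.21 with the union of exons). The core partners RBBP4, RBBP7, SUZ12 and EED had 325 ± 2.51, 181 ± 5.47, 82.7 ± 2.54 and 43 ± 1.27 CPM. Among accessory subunits PHF19 had 277 ± 4.35 CPM and led per kb under each length, and JARID2 had 95.7 ± 2.08. EZHIP, a natural inhibitor of the complex that mimics K27M and marks midline tumours without an H3 change, had 0.157 CPM in the lowest library and 0.492 in the highest. The demethylases KDM6B and KDM6A had 39.1 ± 0.833 and 28.2 ± 1.48 CPM. All 9 H3 chaperones were expressed, with ATRX at 230 ± 7.03 CPM and DAXX at 94.7 ± 1.70 for H3.3 and CHAF1A at 153 ± 3.13 for H3.1.

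PRMT5, the arginine methyltransferase that LLY-283 inhibits (chromosome 14, 22920525 to 22929408), had 87.3 CPM in the lowest library, 88.2 in the median and 90.8 in the highest. Its family members PRMT1, CARM1, PRMT3 and PRMT6 had 358 ± 9.93, 124 ± 2.87, 49.9 ± 1.31 and 38.6 ± 1.25 CPM, and the brain-restricted PRMT8 0.0515. Of 52 targets of epigenetic inhibitors of the kind the study screened 49 were expressed, with a median of 71.7 CPM. The other 3 were PRMT8, the testis bromodomain gene BRDT (0.234 CPM) and the Polycomb reader CBX7 (0.223). ATAD2 and SMARCA4, an ATPase and the motor of the BAF remodeller, had 682 ± 7.46 and 646 ± 7.85 CPM.

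Of 47 glioma tumour genes 43 were expressed, with a median of 82.1 CPM, and TERT, MET, NTRK2 and MYCL fell short, with means of 0.986 CPM for MET, 0.112 for NTRK2 and 0.0248 for MYCL. PIK3CA, altered in this line, had 47.4 CPM in the lowest library, 48.9 in the median and 51.5 in the highest. CDKN1A, the p21 cell cycle inhibitor, had 385 ± 6.15 CPM. MDM4, MDM2 and PPM1D had 158 ± 12.6, 130 ± 5.31 and 93.5 ± 3.28 CPM.

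In the RB axis CCND2 had 1490 ± 20.6 CPM and CCND1 400 ± 5.56, and CCND1 had 0.729 ± 0.0110 times the CPM per kb of CCND2 (0.433 ± 0.00655 with the longest transcripts). CDK4 had 209 CPM and CDK6 164 CPM. Per kb CDK4 exceeded CDK6 by 19.3 ± 1.12 times, with median lengths of 771 and 11637.5 bases. The excess was 7.98 ± 0.462 times with the longest transcripts and 5.05 ± 0.292 times with the union of exons, so its size rests on the lengths. CDKN2A, a tumour suppressor often lost in adult glioma, had 1.10 CPM in the lowest library, 1.26 in the median and 1.97 in the highest, while its neighbours MTAP and CDKN2B had 66.7 ± 1.86 and 7.85 ± 0.325 CPM. MYC had 250 ± 14.4 CPM and MYCN 2.44 ± 0.453, a ratio per kb of 112 ± 25.7 (74.5 ± 17.1 with the longest transcripts and 47.8 ± 11 with the union of exons). The fetal RNA-binding genes IGF2BP3 and LIN28B had 98.9 ± 3.16 and 24.7 ± 0.517 CPM, and the repair gene MGMT 8.11 ± 0.634.

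Of 21 genes in the cell surface antigen list 16 were expressed. Among its 15 antigens that have been pursued as targets of immune therapy 10 (66.7%) were expressed, beside 61.2% of all protein-coding genes. The other members were 2 GD2 synthesis genes and 4 MHC class I genes, all of them expressed. CD276 (B7-H3) had 467 ± 7.47 CPM, NCAM1 191 ± 4.15, MCAM 106 ± 1.21, CD47 72.1 ± 1.47, L1CAM 38.8 ± 0.716, IL13RA2 32.2 ± 2.08, EPHA2 28.7 ± 1.35 and GPC2 25.3 ± 1.59. The GD2 synthesis genes B4GALNT1 and ST8SIA1 had 68.7 ± 2.48 and 2.12 ± 0.363 CPM. CD44, CD274 (PD-L1), CD70, PROM1 and MSLN had means of 0.785, 0.270, 0.210, 0.125 and 0.0625 CPM. MHC class I genes were expressed, with B2M at 481 ± 17.4 CPM, HLA-B at 150 ± 3.71 and HLA-C at 124 ± 5.91, and the similarity of the HLA genes makes the division of reads among them uncertain.

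None of the 39 HOX genes, which mark position from the hindbrain backwards, was expressed, and 18 had 0 counts. The highest means were 0.496 CPM for HOXD3 and 0.456 for HOXA5, and the 39 genes together summed to 1.47 to 2.80 CPM per library. Of 20 regional identity genes 4 were expressed, namely IRX2 (76.9 ± 2.17 CPM), GBX2 (13 ± 0.665), LHX2 (6.99 ± 0.340) and OTX1 (3.61 ± 0.435). OTX2, EN2, NKX6-1 and PAX7 were among the 5 with 0 counts. All 14 proliferation genes were expressed, with PCNA at 358 ± 14.2 CPM, MKI67 at 352 ± 15.3, RRM2 at 246 ± 4.75 and TOP2A at 220 ± 2.49. All 16 immediate early and stress genes were expressed too, IER2 at 160 ± 4.61 CPM, KLF6 at 144 ± 13, JUN at 127 ± 5.13 and FOS at 9.86 ± 1.86.

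The spread between the 6 libraries was small. The median coefficient of variation (SD over mean, with library totals scaled by trimmed mean of M-values, TMM) was 5.07% over the expressed genes, beside 4.22% for counting noise alone. From 100 to 1000 CPM the median was 2.89% beside 1.78%, and at 1000 CPM or more 3.25% beside 0.546%, so that the spread levelled off where counting noise went on falling. Of the 10212 genes at 10 CPM or more 341 varied by over 10% and 37 by over 20%.

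**Figure D4:**
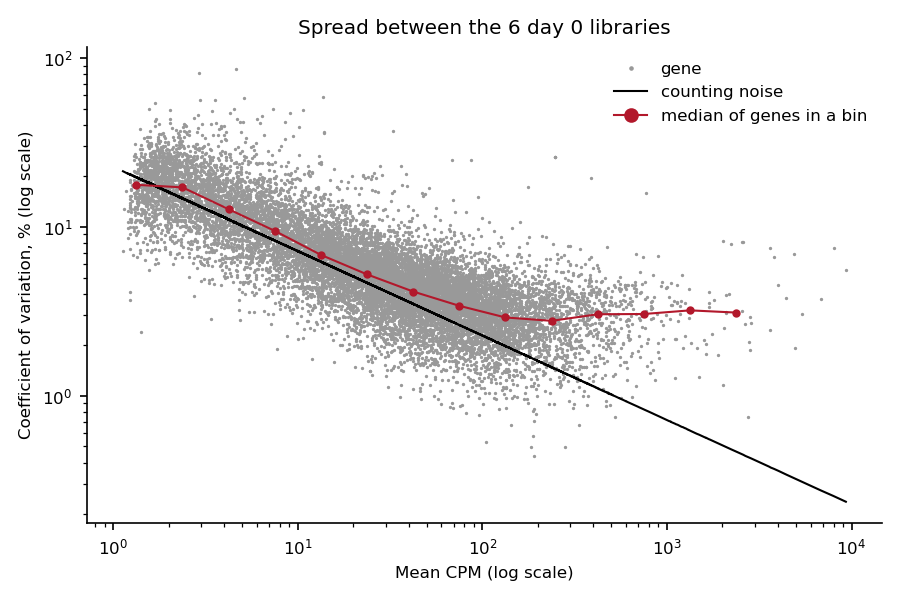
Coefficient of variation over the 6 day 0 libraries (y, percent, log scale) of each expressed gene against its mean CPM (x, log scale), with counting noise as a black line and medians of genes in bins of level in red. The median followed counting noise at low levels and stayed near 3.25% at 1000 CPM or more.

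The genes of largest variation at 10 CPM or more included a pseudogene, a readthrough and a duplicated gene, whose reads can be shared with copies or neighbours. RPL36AP37, a processed pseudogene of a ribosomal protein gene, led with 58.8%, and had 29.3 CPM in vehicle repeat 1 against 7.64 to 16.2 in the other 5. ISY1-RAB43, a readthrough of adjacent genes, followed with 49.4%, then SLX1B, which has a near-identical copy, with 38.7%. The other 7 were ENSG00000285238, ENSG00000275496, ENSG00000273590, ENSG00000277067, ENSG00000285628, ENSG00000281181 and ENSG00000280800, at 25.7% to 37.1%. ENSG00000281181, ENSG00000280800 and the next gene, ENSG00000280614, had the same value in every library (351 CPM in vehicle repeat 1, 184 in LLY-283 repeat 3). None of the 10 was a member of a list above.

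No pair of day 0 libraries was a duplicate. Over genes with 20 or more counts in a pair the chi-square per degree of freedom, which is 1 for counting noise alone, ran from 1.65 to 3.79 within an arm and from 1.70 to 5.23 between arms. Vehicle repeat 1 stood farthest from the others, with a mean of 3.52 against 2.16 to 3.03, and it lay at 14.95 on a first component that took 30.9% of the variance, against -9.55 to 0.32 for the rest. It also had the most genes at 1 CPM or more (15507 against 14853 to 15091) and the largest share of lncRNA counts (1.74% against 1.48% to 1.53%). The part of these features in the results was not tested. Without this library the median coefficient of variation was 4.61%, and counts below that moved by over 1.5 times without it are given both ways.

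The arms at day 0 were compared to measure how far libraries labelled LLY-283 and vehicle differed before the drug could act. By the quasi-likelihood test of edgeR, with p-values adjusted by the Benjamini-Hochberg method, 3 of 17780 genes (0.0169%) were called at an adjusted p below 0.01, all higher in the LLY-283 arm. ARRDC3, an arrestin-like regulator of receptor traffic, had 35.1, 35.9 and 34.5 CPM in the vehicle libraries and 45.3, 44 and 43.6 in the LLY-283 libraries (log2 fold change 0.34 ± 0.0483 SE, adjusted p = 0.00548). KLF6, a growth-responsive zinc finger factor, had 129, 135 and 135 CPM against 160, 149 and 157 (log2 fold change 0.24 ± 0.0364 SE, adjusted p = 0.00666). In both genes the arms did not overlap, but they were chosen by their small p in these same libraries, so this is not further evidence. TRIM8-DT, a divergent transcript, was at the floor of the vehicle arm, with 0, 4 and 0 counts against 50, 25 and 27 (log2 fold change 4.57 ± 0.608 SE, adjusted p = 0.00666), and the size of that fold is set by those few counts. TRIM8-DT passed the filter on low counts only through the LLY-283 libraries, so its call is not further evidence of a difference.

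The next genes by p were ENSG00000278903 (adjusted p = 0.0149 in edgeR's test, lower in the LLY-283 arm) and TXNIP, an arrestin-like brake on glucose uptake (log2 fold change 0.27 ± 0.0434 SE, adjusted p = 0.0175). ARRDC3 and KLF6 were the 2 of 16 immediate early and stress genes called. That list was drawn up with these results known, so the count is not independent evidence. In the other 26 lists no member was called. OLIG2 (adjusted p = 0.871), SOX2 (0.620) and PDGFRA (0.947) did not pass in edgeR's test, with log2 fold changes of 0.06, 0.11 and 0.03. The calls and their direction depended on the libraries and the filter used. Leaving out LLY-283 repeat 1 gave 0 called genes (740 at an unadjusted p below 0.05 in edgeR's test). Without LLY-283 repeat 3 there were 2, neither of them among the 3. Without vehicle repeat 1, vehicle repeat 3 or LLY-283 repeat 2 there were 15, 16 and 17, each time with all 3 among them. Without vehicle repeat 2 there were 7, with 2 of the 3 among them.

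The 6 day 0 libraries were then compared with the 3 vehicle day 5 libraries, to show which features differed between the days. Time in culture cannot be told apart from any other difference between the days, such as harvest or library handling. By the same edgeR test 3225 of 18006 genes (17.9%) were higher at day 0 and 4353 (24.2%) lower, a split that turned to 4130 higher and 3489 lower with library size alone as the scaling. Mitochondrial genome genes moved with the day, 35 of 37 being higher at day 0 (chosen after their values were seen), with 45400 to 54000 CPM in all at day 0 and 27300 to 30700 at day 5, and their part in that split was not tested. In the lists described here no called member changed sign under library size alone. Of the 13553 protein-coding genes tested 2567 were higher at day 0 and 4204 lower, and the list counts below are to be read beside these.

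Of 14 oligodendrocyte precursor markers tested 10 were lower at day 0 and 2 higher. PDGFRA had 79.8 to 86.4 CPM at day 0 and 154, 153 and 158 at day 5, with no overlap (log2 fold change -0.98 ± 0.0310 SE, adjusted p = 2.79e-20 in edgeR's test). OLIG2 (-0.31 ± 0.0280 SE) and BCAN (-1.08 ± 0.0294 SE) were also lower at day 0. VCAN and CSPG5 were the pair that were higher, at 0.44 and 0.54, and 1 of the 2 was called without vehicle day 5 repeat 3. Neural stem cell markers were divided, with 2 of 10 higher (VIM at 0.76, NES at 0.22) and 5 lower (HES1 at -1.41).

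Neuron markers moved the other way, 6 of 9 being higher at day 0 and none lower. TUBB3 was higher at day 0 by 1.00 ± 0.0361 SE. DCX, a microtubule protein of migrating neuroblasts, had 2.06 to 3.1 CPM at day 0 and 0.479, 0.643 and 0.506 at day 5 (log2 fold change 2.22 ± 0.250 SE, adjusted p = 1.57e-08 in edgeR's test). At day 5 DCX was near the floor, and it passed the filter on low counts through the day 0 libraries. DCX is among the 6, and its call is no further evidence for the direction of the list. Astrocyte markers were even, with 4 of 13 higher and 4 lower. KCNJ10, a potassium channel of glia, had 1.21 to 2.16 CPM at day 0 against 19.8, 22.8 and 22.4 (log2 fold change -3.78 ± 0.114 SE, adjusted p = 9.11e-21), and AGT was higher at day 0 by 1.13. Glutamate and GABA receptors gave 9 of 19 higher and 2 lower (GRM3 at 0.86, GRIA2 at -0.68).

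**Figure D5:**
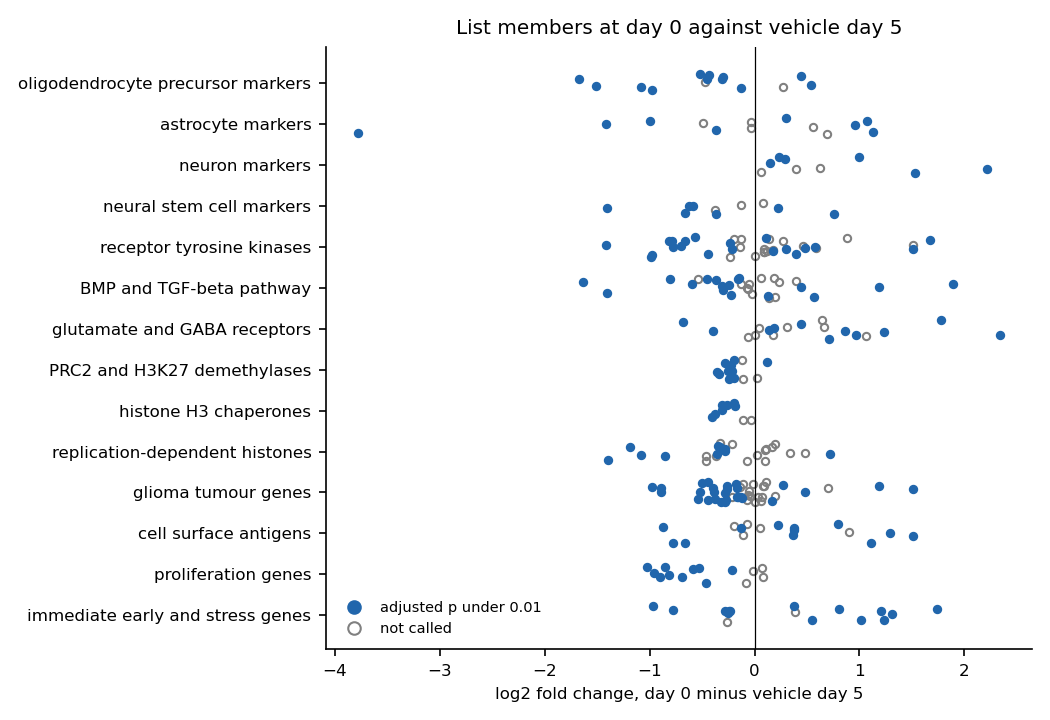
Log2 fold change of day 0 minus vehicle day 5 (x) for the tested members of 14 lists (rows), filled where the adjusted p of edgeR's test was below 0.01 and open where it was not. KCNJ10 lay farthest to the left at -3.78, and no called member of the proliferation and H3 chaperone lists lay to the right of 0.

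Proliferation genes were lower at day 0 in 10 of 14 cases and higher in none, MKI67 with 334 to 379 CPM against 610, 608 and 566 (log2 fold change -0.82 ± 0.0313 SE, adjusted p = 2.78e-18 in edgeR's test). With library size alone 2 members were called higher and 10 lower, and the same numbers were found without vehicle day 0 repeat 1. Among H3K27 regulators 9 of 13 were lower at day 0 and PHF19 alone higher (0.12), and 7 of 9 H3 chaperones were lower, each by 0.41 or less (EZH2 -0.24, ATRX -0.38). H3-3A was lower at day 0 (-0.28 ± 0.0361 SE) and H3-3B higher (0.28 ± 0.0295 SE). Replication-dependent histone genes gave 9 lower and 1 higher (H1-2 at 0.72) of 24, but 4 lower with library size alone and 3 lower without vehicle day 5 repeat 3.

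Of 36 receptor tyrosine kinases 8 were higher at day 0 and 12 lower, beside 2567 higher and 4204 lower of 13553 protein-coding genes. EGFR was higher (0.48 ± 0.0297 SE) with 650 to 697 CPM against 479, 468 and 455, and DDR2 lower (-0.99). Of their 34 tested ligands 7 were higher (EREG at 2.20, EFNB2 at 0.64) and 12 lower. In the BMP and TGF-beta pathway 5 of 29 were higher (ID2 at 1.19) and 12 lower (TGFB1 at -0.81), with 3 higher without vehicle day 5 repeat 3, and ACVR1 did not pass (0.20 ± 0.0668 SE, adjusted p = 0.0150 in edgeR's test). Of 45 glioma tumour genes 5 were higher and 23 lower, CDKN1A being higher by 1.19 ± 0.0300 SE and MYC lower by 0.89 on the log2 scale, and the higher count was 11 with library size alone and 9 without vehicle day 0 repeat 1. PRMT5 did not pass, and its change of -0.05 ± 0.0331 SE turned to 0.01 with library size alone.

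All 4 MHC class I genes were higher at day 0, HLA-B with 145 to 154 CPM against 52.1, 47.4 and 51.5 (log2 fold change 1.51 ± 0.0383 SE, adjusted p = 1.58e-22 in edgeR's test). They made up 4 of the 8 genes that were higher in the list of 17 tested surface antigen genes, in which 4 others were lower (ERBB2, EPHA2, CSPG4 and L1CAM). Of 16 immediate early and stress genes 8 were higher (KLF2 at 1.74, ATF3 at 1.21) and 6 lower (NR4A1 at -0.97). Of 49 inhibitor targets 9 were higher and 25 lower (BAZ2A at -0.64). In the fibroblast and mural list POSTN was higher (1.35) and THY1, LUM and PDGFRB lower. COL1A1 and FN1 were not called, and vehicle day 5 repeat 3 alone had 52.7 and 59.1 CPM of them against 8.27 and 7.71 of COL1A1 and 2.34 and 2.63 of FN1 in the other two. Without that library COL1A1 passed at a log2 fold change of -0.52 (adjusted p = 0.00182 in edgeR's test), and that of FN1 turned from -2.24 to 0.80 without passing (adjusted p = 0.325). Those of COL1A2 and COL3A1 turned as well, from -3.37 to 0.48 and from -3.06 to 1.47, and DCN moved from -1.58 to -0.06. None of these was called with or without the library. POSTN, THY1, LUM and PDGFRB kept their direction.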

How the data were processed

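RNA of HSJD-DIPG-007 spheroids was measured by paired-end sequencing of poly(A) libraries made with a directional kit. The deposited table held, per gene, estimated counts in whole numbers that the authors made with kallisto against hg38 transcripts. The kallisto version, the annotation release and whether strand was used in counting are not given in the sources used here. Identifiers were paired with symbols, positions and lengths of GENCODE release 44 (58207 of 58676 matched, with 0.0886% of day 0 counts outside), and 4 histone genes (H2AC18, H2AC19, H3C2, H3C3) are not analysed here. Levels were scaled to library totals. The comparisons used edgeR 4.0.16 in R 4.3.3 (filterByExpr, TMM, quasi-likelihood test, Benjamini-Hochberg), with calls at an adjusted p under 0.01, and DESeq2 1.42.0 as an alternative. Each SE of a log2 fold change was worked back from the fold change and the statistic of the edgeR test. It is not a separate estimate, and for genes near 0 counts in a group it is only a rough guide. The edgeR test, but not DESeq2, was also run on simulated counts in which some genes were given a larger or a smaller change. Both planted changes were larger than the fold changes called for ARRDC3 and KLF6, so recovery at those sizes was not tested. In the setting of the arms at day 0 it recovered 88% of genes with the larger change and 69% with the smaller, and called 6 unchanged genes among 17356 genes in all. Those 6 are to be weighed against the planted genes that were called, which were far fewer than 17356. In the setting of day 0 against vehicle day 5 it recovered 85% and 81%, and called 0 unchanged genes among 17569 in all. Alternatives were DESeq2's size factors, library size alone, other filters on low counts, a replicate block, other transcript lengths and leaving out each library.

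Genes named were the markers, genotype genes and PRMT5, the 15 most abundant on each scale, members of each list by level, those at 0 counts or under 1 CPM, the called genes or 5 of smallest p between arms, members of smallest p between days, and the 10 of largest variation. A few further list members are named in the day 5 comparison for their known role, chosen after their values were seen. The members and lists were chosen with earlier results of these data known. Floors cover counting error only, while each SD and SE also takes in the spread between the libraries. Some genes are not reported here.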

Additional observations from a re-analysis of the deposited data

Results flagged for a closer look

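Among the day 0 values, 64 measures were tested for a library far from the other 5, with Dixon's ratio over the 6 libraries, and 5 passed. Chance alone marks about 1 in 20 such measures. Vehicle repeat 1 stood apart in 3 of them. It had 2750 CPM of HSP90AB1, an abundant chaperone, against 2850 to 2890 in the others, 15507 genes at 1 CPM or more against 14853 to 15091, and 1.74% of its counts in lncRNA genes against 1.48% to 1.53%. LLY-283 repeat 3 had the lowest sum of mature oligodendrocyte markers, 151 CPM against 154 to 155. LLY-283 repeat 1 had the highest sum of epithelial markers, 2.26 CPM against 1.75 to 1.89, all of them sums of genes that were not expressed.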

How the results depend on the processing

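The 3 calls between the arms at day 0 became 56 with no filter on low counts, 8 at an adjusted p under 0.05, and 0 to 17 as each library was left out, while DESeq2 gave 4 and library size alone 3. At least 10 counts in every library gave 3 calls, 2 higher and 1 lower, with 2 of them among the 3 of the main test. All calls were higher with DESeq2 and with library size alone. The direction was split with no filter (27 higher, 29 lower) and with a replicate block (1 higher, 5 lower). With a replicate block the count was 6, of which 1 was among the 3, and same-numbered libraries of the arms deviated with correlations of -0.0516, -0.0587 and -0.0196, so that the numbers do not pair the samples. Day 0 against vehicle day 5 gave 7578 calls, 7247 with the replicate block, 6824 with DESeq2, 6652 from the vehicle day 0 libraries only and 6460 to 7650 as each library was left out, but 9542 at an adjusted p under 0.05. The number of genes expressed at day 0 ran from 11262 to 15752 over its alternatives, the median coefficient of variation from 4.07% to 5.19% and the share of the 100 most abundant genes from 14.5% to 17.8%. The ratio of H3-3A to H3-3B turned from 0.673 to 1.83 with the union of exons and 1.70 with the longest transcript, through the lengths used. The fold change of PRMT5 between days turned to 0.01 with library size alone. Depth limits genes near 1 CPM, whose spread was mostly that of counting.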
